A study of Homo sapiens with 3 samples.

Results

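The cells described here are the barcodes richest in late G2/M transcripts in 3 single-cell RNA libraries of FaDu cells, a human hypopharyngeal squamous carcinoma line. In each library, barcodes with at least 5000 UMIs (unique molecular identifiers, each counting 1 captured transcript) and at most 20% mitochondrial UMIs were ranked. The ranking value was the summed UMIs of CCNB1, PLK1, CDC20, CENPE, CENPA, AURKA, HMMR and DLGAP5 divided by all UMIs of the barcode, and the top 10% of each library are the members. They numbered 598 of 5979 passing barcodes in the FaDu library, 466 of 4657 in the first resistant library and 695 of 6954 in the second, or 1759 of 17590 in all. The deposited matrices hold 21857 barcodes.

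The first library came from FaDu cells given cinobufotalin, a bufadienolide from toad venom that inhibits the sodium pump. The second came from a FaDu subline selected for resistance to TPF (paclitaxel, cisplatin and 5-fluorouracil) and given TPF, and the third from the same subline given TPF together with cinobufotalin. The sources used here do not give doses, times or whether the subline is 1 clone, and cells without any drug were not analysed here. Only the resistant pair differs in 1 labelled factor, while the FaDu library differs from both in the line and in TPF, and from the resistant TPF library also in cinobufotalin. Each group is 1 library, so no test across libraries was possible and intervals throughout are 95% Clopper-Pearson intervals that cover counting error only. Values for the 3 libraries are given in the order FaDu, resistant TPF, and resistant TPF plus cinobufotalin.

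A cell enters mitosis when cyclin B and its kinase CDK1 become active, with Aurora A and Polo-like kinase 1 acting on the way. The genes of this step share a late peak of transcription, set in large part by the repressor complex DREAM in G1 and by the activators MYBL2 and FOXM1 in G2. DREAM reaches DNA through a short element called CHR (cell cycle genes homology region), often with CCAAT boxes bound by NF-Y upstream of it. At anaphase the anaphase-promoting complex, charged by CDC20, marks securin and cyclin B for destruction.

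The promoters shown are examples from genes that were high together in the members: 4 of the 8 ranking genes and 3 of the genes at least 2-fold higher in the members of all 3 libraries, described below. They were chosen after the motif positions were seen, mostly with CHR letters near the start, and are not typical of all these genes. Each sequence is 110 bases from RefSeq on build GRCh38.p14, read 5′ to 3′ on the gene's strand, with CHR letters (TTTGAA or TTCGAA, or the reverse strand TTCAAA) and CCAAT boxes (CCAAT, or ATTGG on the other strand) in capitals. They lie at chr15:59105036-59105145 (plus strand) for CCNB2, chr16:23678779-23678888 (plus) for PLK1, chr5:163460522-163460631 (plus) for HMMR, chr1:43358871-43358980 (plus) for CDC20, chr5:69167040-69167149 (plus) for CCNB1, chr1:68497083-68497192 (minus) for DEPDC1 and chrX:70289994-70290103 (plus) for KIF4A.
CCNB2: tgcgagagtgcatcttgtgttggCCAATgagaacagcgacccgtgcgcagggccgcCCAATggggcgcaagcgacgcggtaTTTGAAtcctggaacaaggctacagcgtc
PLK1: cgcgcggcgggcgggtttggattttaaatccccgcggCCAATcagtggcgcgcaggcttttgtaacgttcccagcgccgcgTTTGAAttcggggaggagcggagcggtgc
HMMR: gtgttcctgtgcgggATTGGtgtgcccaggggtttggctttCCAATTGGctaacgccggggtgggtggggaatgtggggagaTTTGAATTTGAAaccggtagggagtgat
CDC20: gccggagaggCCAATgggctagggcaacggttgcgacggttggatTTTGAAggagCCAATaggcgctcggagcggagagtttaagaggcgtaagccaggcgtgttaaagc
CCNB1: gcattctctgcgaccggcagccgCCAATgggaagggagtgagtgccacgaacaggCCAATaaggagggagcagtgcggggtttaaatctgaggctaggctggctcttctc
DEPDC1: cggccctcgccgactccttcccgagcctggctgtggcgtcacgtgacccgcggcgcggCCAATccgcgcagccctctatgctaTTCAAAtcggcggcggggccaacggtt
KIF4A: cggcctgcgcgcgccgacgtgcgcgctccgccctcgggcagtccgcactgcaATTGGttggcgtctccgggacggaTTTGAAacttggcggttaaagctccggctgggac

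In CCNB2 and PLK1 the CHR letters begin 29 bases before the annotated start. HMMR carries them in tandem, at 28 and 22 bases before the start, and its last CCAAT and ATTGG share letters. CCNB1 holds a pair of CCAAT boxes and no CHR letters in this window. Among genes that are not shown, KIF20A has no CHR letters in its promoter window either, and those of BORA begin 177 and 124 bases before the start and those of ASPM 113 bases before it. Over the full window of 300 bases (250 before the start and 50 after), CHR letters on either strand were present in 5 of the 7 ranking genes that have an entry in the RefSeq table. They were present in 22 of the 28 matched genes (78.6%) that were at least 2-fold higher in the members of all 3 libraries. Among all 35116 promoters of the table the share was 16.4%, among 20 matched G1/S genes 10% and among 21 matched replication genes 9.52%. CCAAT or ATTGG was present in 22 of the same 28 genes, in 34.6% of all promoters and in 70% of the 20 matched G1/S genes. The gene sets were counted by gene, with a gene counted if any of its promoters matched. All promoters were counted by entry, so the units are not the same. CHR letters and a CCAAT box stood together in 19 of the 28 and in 6.38% of all promoters. CHR letters beginning within 40 bases before the start, a window chosen after the positions were seen, were present in 10 of the 28 (35.7%) and in 2.23% of all promoters. A match is a description of these letters and does not show that a factor binds there.

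Over the passing barcodes the ranking value had medians of 2.28, 2.73 and 2.46 ranking UMIs per 10000 UMIs and maxima of 31.0, 34.5 and 29.1. The limit of membership lay at 6.36, 5.99 and 5.94 per 10000, and the first barcode outside it differed from the last one inside by less than 0.01. The values ran on without a gap at this limit, so the members are a range and not a separate class. RNA of these genes does not tell late G2 from mitosis, which was not measured here. Within 10% of the limit lay 229, 210 and 325 barcodes on either side. Members held a median of 26, 27 and 16 ranking UMIs, and the other barcodes 5, 7 and 4. Ranking UMIs were absent from 457, 290 and 611 of the other barcodes.

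Members carried slightly more RNA than the other barcodes of their library. Their median was 27115, 29894 and 19461 UMIs, against 24480, 28186 and 18441 in the others. Genes detected per barcode after thinning to 5000 UMIs had medians of 1906, 2185 and 2157 in members and 1905, 2212 and 2177 in others. Mitochondrial UMIs had medians of 3.77%, 3.99% and 4.07% in members and 3.82%, 4.05% and 3.62% in others. Barcodes with under 0.1% of UMIs from MALAT1, an abundant RNA kept in the nucleus, made up 52.8%, 9.87% and 6.76% of members and 52.0%, 8.76% and 15.3% of others. The part of these differences in the results was not tested, though 29 genes in place of 32 passed the 2-fold rule below when barcodes under this MALAT1 share were left out. Between libraries 9 to 13 barcodes were shared per pair, of which 1 was a member in both. Fibroblast, immune and endothelial markers were near 0 in the members: none of 8 fibroblast, 10 immune and 6 endothelial markers reached a mean of 5 CPM (UMIs of a gene per 1000000 UMIs), and the summed levels of these lists in members were 2.17 to 3.68, 4.45 to 8.10 and 4.05 to 7.43 CPM. Of 5 erythroid markers 1 was measured, the globin HBA1, and the summed level of the list was 6.73, 16.3 and 9.56 CPM in members and 5.66, 11.7 and 9.54 in others. The 11 squamous epithelial markers were all measured, at a summed 7329, 5757 and 4448 CPM in members.

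The 8 ranking genes were used to choose the members, so their levels are a description with no test. CCNB1, the B-type cyclin that activates CDK1, stood at 304, 264 and 244 CPM in the members and at 67.6, 60.9 and 59.4 CPM in the other barcodes. PLK1, a kinase of mitotic entry and spindle assembly, stood at 99.8, 63.9 and 60.1 CPM in members against 18.4, 11.4 and 10.9. AURKA, the kinase that matures centrosomes, stood at 73.5, 109 and 102 CPM against 12.9, 17.1 and 17.6. Among the 8 genes AURKA had the highest ratio in all 3 libraries, with log2 ratios of 2.51, 2.67 and 2.53. HMMR, a microtubule-binding protein of the spindle, had log2 ratios of 2.37, 2.45 and 2.48. CDC20 stood at 294, 186 and 159 CPM in members against 77.6, 63.3 and 53 CPM, and its log2 ratio of 1.92 in the FaDu library was above the 1.56 and 1.59 of the resistant libraries. DLGAP5, which stabilises kinetochore fibres, differed in the same way, at 2.06 against 1.60 and 1.71. CENPE, a kinesin that moves chromosomes to the spindle equator, and CENPA, the histone H3 variant of centromeres, had log2 ratios of 1.77, 1.75 and 1.88 and of 1.79, 1.59 and 1.85.

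A gene that helps to choose the members must be high in them, so each of the 8 was also read in members chosen by the other 7. All 8 were still at least 2-fold higher in all 3 libraries, from 2.38-fold for CDC20 with TPF plus cinobufotalin to 5.57-fold for AURKA with TPF. CCNB1 then had log2 ratios of 1.93, 1.90 and 1.71, PLK1 2.27, 2.39 and 2.23, and CENPA 1.53, 1.44 and 1.54. Leaving the gene out lowered its log2 ratio by 0.10 to 0.44, and 82.7% to 97.2% of members were kept. These ratios come from the same barcodes and are not an independent sample.

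**Figure D1:**
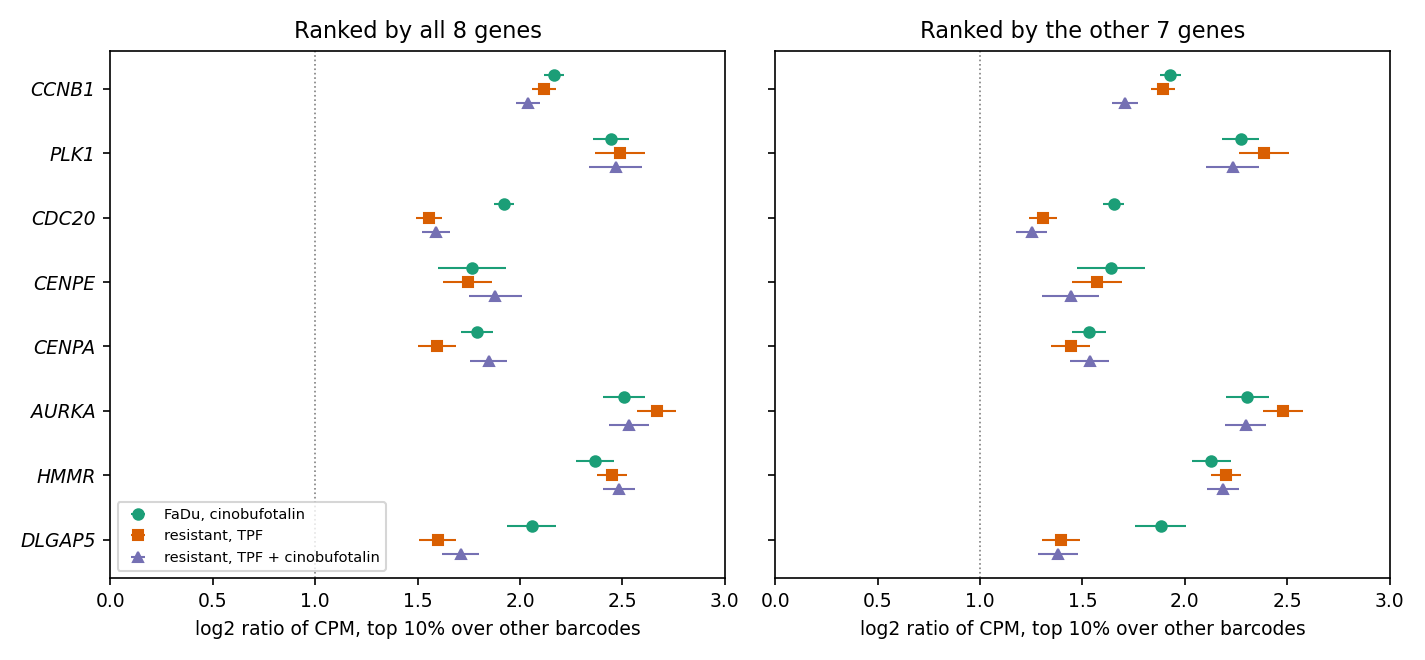
Log2 ratio of CPM (x axis) in the top 10% over the other barcodes for the 8 ranking genes (y axis), ranked by all 8 genes on the left and by the 7 other genes on the right. Points are libraries, bars are 95% counting intervals and the dotted line marks 2-fold. All points lie right of it, between 1.56 and 2.67 on the left and between 1.25 and 2.48 on the right.

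The members did not all carry the whole set at this depth. After each barcode was thinned to 5000 UMIs, a UMI of at least 4 of the 8 genes was found in 36.5%, 45.5% and 44.2% of members and in 1.2%, 2.2% and 1.4% of the other barcodes. A CCNB1 UMI was found in 74.1%, 66.5% and 67.9% of thinned members and in 23.5%, 25.2% and 23.9% of thinned others. For PLK1 the shares were 39.3%, 30.7% and 23.0% against 7.75%, 5.34% and 4.68%. A cell line holds no cell type that lacks these genes, so the share that free RNA gives was not measured.

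Because the top 10% is the same share in each library by construction, the share at 1 common level was also counted. At 4 or more ranking UMIs in 5000 thinned UMIs it was 11.5% (10.7 to 12.3), 12.7% (11.8 to 13.7) and 10.3% (9.62 to 11.1). The intervals of the resistant pair do not overlap, but with 1 library each the spread between cultures is unknown. Without thinning, at a common 6.10 ranking UMIs per 10000, the shares were 11%, 9.66% and 9.38%, so which library was highest depended on this choice.

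Outside the 8 ranking genes, 32 of 8075 genes with a mean of at least 10 CPM (0.396%) were at least 2-fold higher in the members of all 3 libraries. A single gene was at least 2-fold lower in all 3 (0.0124%). Single libraries had 63, 42 and 37 genes past 2-fold in the higher direction and 15, 9 and 9 in the lower, while the median log2 ratio over all 8075 genes was 0.02, -0.03 and -0.01. The 12 lists of the mitotic machinery and the ranking set hold 180 genes with a mean of at least 5 CPM. Outside the ranking set 10285 genes reach that level. Of the 32 genes, 21 belong to these lists. The remaining 11 were CDKN3, PIMREG, NMU, KPNA2, NEURL1B, SAPCD2, PRR11, AC099850.2, G2E3, ARL6IP1 and GAS2L3. Of these, AC099850.2 overlaps PRR11 on the same strand, at means of 23.6 and 19.8 CPM, so their reads may not be separate. Since members were chosen on genes of the same programme in the same barcodes, these counts of genes are a description. With the top 20% of barcodes 11 of the 32 genes passed, and with ranking on thinned barcodes 15 of them.

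DEPDC1 had the highest ratio of the named genes outside the ranking set in both resistant libraries. It stood at 93.8, 133 and 131 CPM in members and 21.6, 27.4 and 27.7 CPM in others. Its log2 ratios of 2.12 (2.03 to 2.20), 2.28 (2.20 to 2.37) and 2.24 (2.15 to 2.32) were in the range of the ranking genes themselves. It lies on chromosome 1 at 68474152 to 68497221, minus strand, in hg38.

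Cyclins and the control of mitotic CDK had 7 of 14 genes at least 1.5-fold higher in all 3 libraries and none lower, against backgrounds of 0.953% and 0.263% of the 10285 genes with a mean of at least 5 CPM. The list had median log2 ratios of 1.01, 0.73 and 0.78, where all genes had 0.01, -0.04 and -0.02. CCNB2, the second B-type cyclin, stood at 153, 114 and 92.1 CPM in members and 46.0, 37.5 and 32.8 CPM in others, with log2 ratios of 1.73, 1.60 and 1.49. BORA, the cofactor through which AURKA activates PLK1, had 1.99, 1.59 and 1.62. CDK1 itself, the kinase partner of cyclin B, had 1.07, 1.09 and 1.01. CCNA2, a cyclin of S phase and G2, had 1.11, 0.84 and 1.1. GTSE1, a microtubule-binding protein of G2 and mitosis, had 1.46, 1.26 and 1.31, and the CDK-binding subunit CKS2 had 1.22, 1.16 and 1.12. CDKN3, a phosphatase that acts on CDKs, stood at 578, 556 and 501 CPM in members against 223, 216 and 205 in others.

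Motor and spindle genes were the other large block. All 13 mitotic kinesins had ratios above 0 in all 3 libraries, as did 24.3% of all 10285 genes, while 30.2% had ratios below 0 in all 3. The kinesins had medians of 1.22, 0.74 and 0.74, and 7 of the 13 were at least 1.5-fold higher in each. KIF20A, which carries the chromosomal passenger complex to the anaphase midzone, stood at 19.7, 17.8 and 14.5 CPM in members against 4.15, 4.15 and 4.42, with log2 ratios of 2.25, 2.10 and 1.71. Its locus overlaps CDC23 on the opposite strand, at a mean of 33.2 CPM against its own 10.8, and the sources used here do not say how strand was counted. The same doubt holds for BORA, which overlaps DIS3 (12.4 against 29.5 CPM), KIF4A, which overlaps PDZD11 (20.4 against 77.6 CPM), UBE2S, which overlaps RPL28 (1114 against 3591 CPM), and CCNE2, which overlaps NDUFAF6 (29.5 against 81.9 CPM). KIF18A, which damps chromosome movement at the plate, had 1.60, 1.38 and 1.12, and the chromokinesin KIF4A had 1.38, 1.04 and 1.09. Of 23 spindle assembly factors 13 were at least 1.5-fold higher in all 3 libraries, with medians of 0.95, 0.70 and 0.76. ASPM, a spindle pole protein, stood at 56.7, 124 and 125 CPM in members and at 17.2, 43.5 and 42.7 in others. KNSTRN, a kinetochore and spindle protein, had log2 ratios of 1.38, 1.32 and 1.29, PSRC1, a microtubule-binding protein, had 1.98, 1.44 and 1.45, and FAM83D, which brings a casein kinase to the spindle, had 1.36, 1.27 and 1.13.

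Genes of chromosome attachment were mixed. In the list of the chromosomal passenger complex, the Aurora B module that corrects faulty attachments, 5 of 6 measured genes were at least 1.5-fold higher in all 3 libraries. They were INCENP, BIRC5 and CDCA8 of the complex, and SGO1 and SGO2, which the list holds but which are not subunits of it. The list had medians of 1.02, 0.88 and 0.82. BIRC5 (survivin) stood at 392, 388 and 430 CPM in members against 195, 209 and 223. AURKB, the kinase of the complex, was the exception, with log2 ratios of 0.82, 0.34 and 0.17. In the spindle assembly checkpoint, which holds back anaphase, 4 of 12 genes passed, led by the kinase BUB1 at 1.69, 1.37 and 1.39. In the kinetochore and centromere list 4 of 30 passed and the medians were only 0.10, 0.11 and 0.06. CENPF, a large protein of the outer kinetochore, had 1.57, 1.32 and 1.33, and NUF2, a subunit of the microtubule-binding NDC80 complex, had 1.48, 1.18 and 1.16.

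The machinery of mitotic exit was split in the same way. Among 18 genes of the anaphase-promoting complex and its enzymes 2 passed, and the medians were 0.12, 0.05 and 0.05. These 2 were the ubiquitin-conjugating enzymes of the complex, UBE2C at 1337, 1232 and 1418 CPM in members against 494, 470 and 615 in others, and UBE2S with log2 ratios of 0.89, 0.71 and 0.85. PTTG1 (securin), which restrains separase, was the sole gene of 13 in the cohesin and separase list past 1.5-fold in all 3 libraries. Its log2 ratios were 1.09, 1.17 and 1.05. Of 13 cytokinesis genes 9 passed, with medians of 1.05, 0.84 and 0.85, and KIF14 among them had 1.34, 1.04 and 1.06. Of 10 condensin and chromatin genes 3 passed, led by TOP2A, the topoisomerase that untangles sister chromatids, at 162, 247 and 238 CPM in members against 61.6, 100.2 and 99.7.

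The regulators of this transcription differed little. In the list of G2/M transcription factors and DREAM subunits 1 of 12 passed, the low-level E2F5, which also overlaps a more abundant gene, and medians were -0.01, -0.08 and 0.01. FOXM1 had log2 ratios of 0.42, 0.38 and 0.43. The centrosome and centriole list had 1 of 12 past 1.5-fold in all 3 libraries, the kinase NEK2 at 1.58, 1.17 and 1.00. Tubulins had medians of 0.14, 0.29 and 0.17, with TUBA1C past 1.5-fold in all 3 libraries at 0.84, 0.89 and 0.89.

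**Figure D2:**
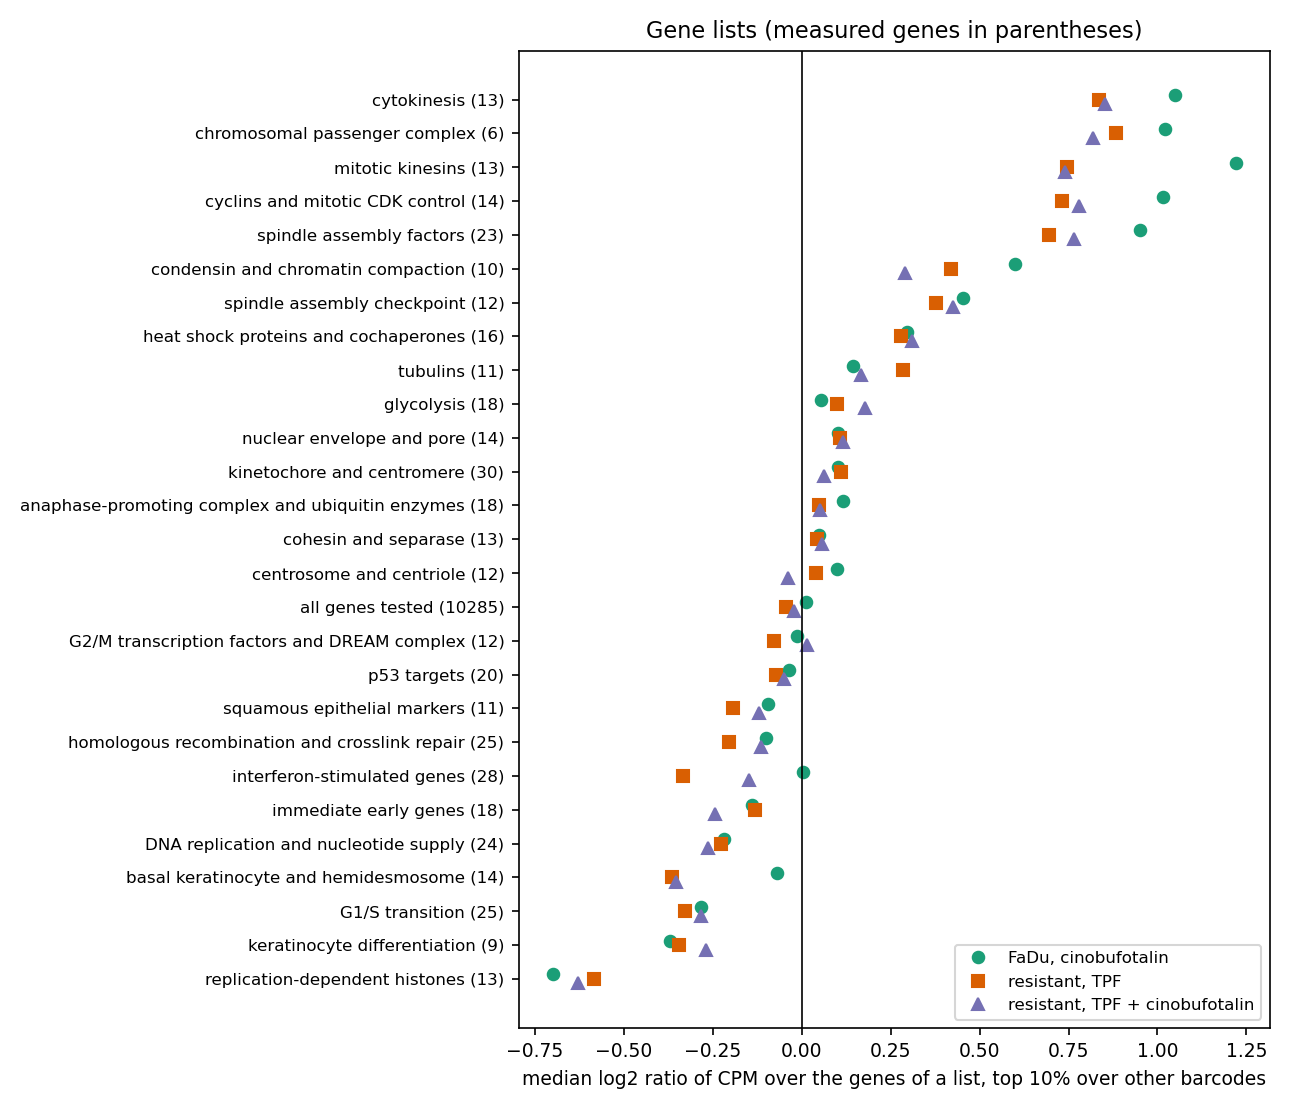
Median log2 ratio of CPM (x axis) in the top 10% over the other barcodes for each gene list with at least 6 measured genes (y axis, with the number measured). Points are the 3 libraries. Cytokinesis, passenger complex, kinesin, cyclin and spindle assembly factor lists lie between 0.70 and 1.22, and the histone list between -0.70 and -0.58.

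Among genes outside the mitotic lists used here, NMU, which encodes the neuropeptide neuromedin U, stood at 96.3, 70.8 and 70.4 CPM in members and 39.0, 28.4 and 29.4 in others, a log2 ratio of 1.30, 1.32 and 1.26. KPNA2, an importin of nuclear transport, had 1.24, 1.28 and 1.21, and PIMREG had 1.63, 1.52 and 1.49. Of 16 heat shock genes 12 had ratios above 0 in all 3 libraries, where 24.3% of all genes did, and none had ratios below 0 in all 3, with medians of 0.30, 0.28 and 0.31. HSPH1, a nucleotide exchange factor for HSP70, was the 1 that passed 1.5-fold in all 3 libraries, at 0.63, 0.62 and 0.68. The constitutive HSPA8 had 0.76, 0.52 and 0.52.

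**Figure D3:**
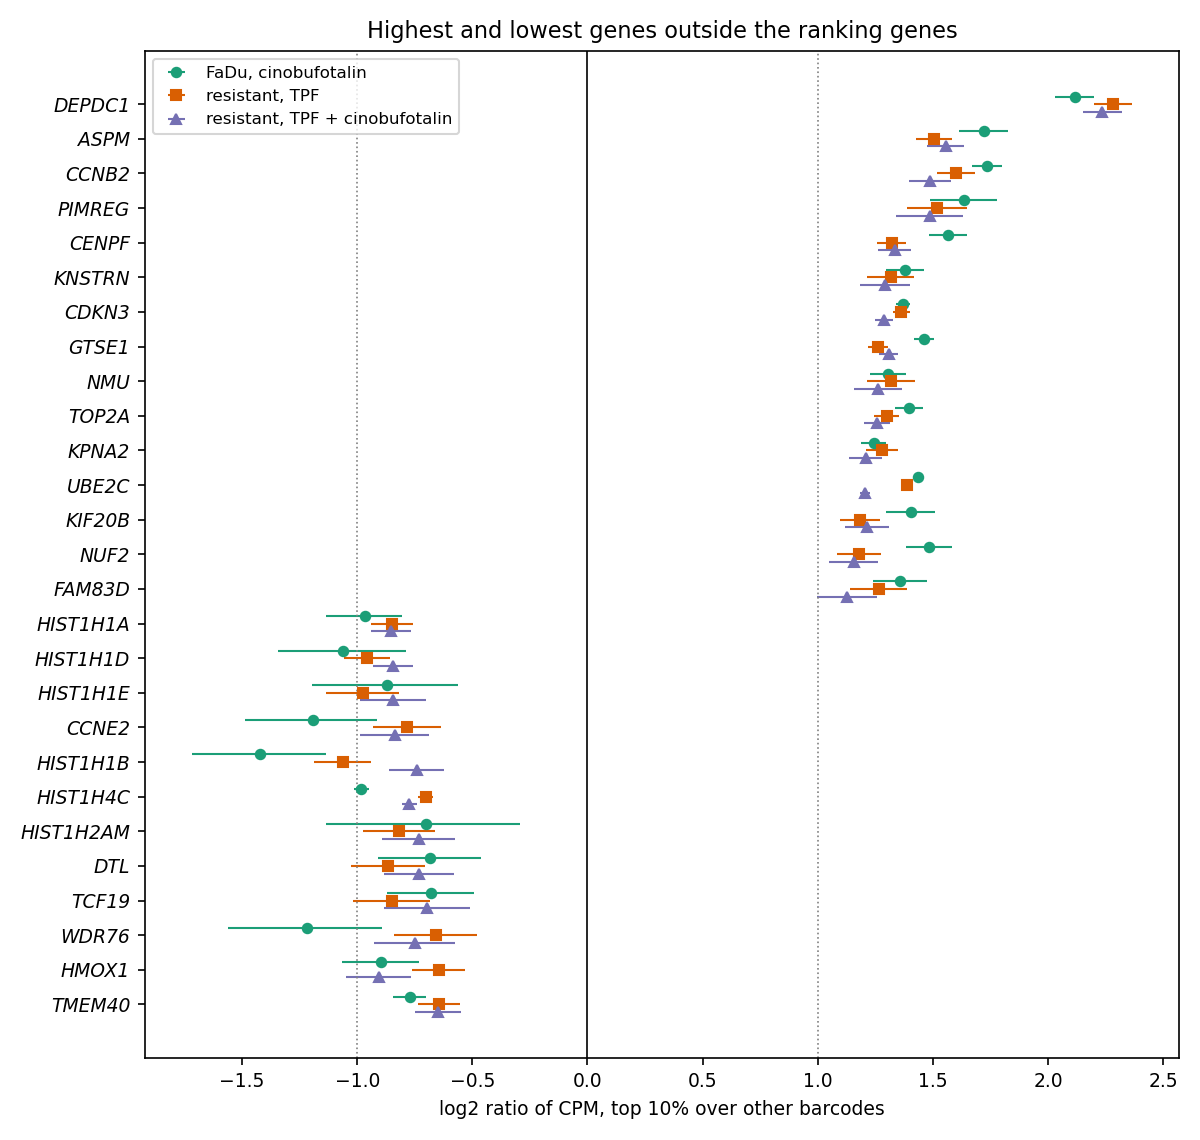
Log2 ratio of CPM (x axis) in the top 10% over the other barcodes for the 15 highest and 12 lowest named genes with a mean of at least 20 CPM (y axis). Points are libraries, bars are 95% counting intervals and dotted lines mark 2-fold; the highest genes run from DEPDC1 at 2.12 to 2.28 down to FAM83D at 1.13 to 1.36, and linker histones lead the lowest.

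Replication-dependent histone genes were lower in the members, while most G1/S and replication genes were less than 1.5-fold lower. Of 13 measured replication-dependent histone genes 6 were at least 1.5-fold lower in all 3 libraries and none higher, with medians of -0.70, -0.58 and -0.63. Most of these transcripts lack a poly(A) tail, so a 3′ kit counts only part of them. HIST1H4C stood at 441, 632 and 614 CPM in members and at 871, 1030 and 1050 CPM in others. HIST1H1B, a linker histone, stood at 5.94, 39.7 and 44.8 CPM against 15.9, 82.8 and 74.8, with log2 ratios of -1.42 (-1.72 to -1.14), -1.06 (-1.19 to -0.94) and -0.74 (-0.86 to -0.62). In the FaDu library this rests on 104 UMIs in members. The other linker histones HIST1H1D, HIST1H1A and HIST1H1E had log2 ratios from -0.84 to -1.06. CCNE2, a cyclin of the G1/S step, stood at 6.11, 28.5 and 28.6 CPM in members against 14.0, 49.0 and 51.0. Of 25 G1/S genes 3 were at least 1.5-fold lower in all 3 libraries (CCNE2, DTL and FAM111B), 19 had ratios below 0 in all 3, where 30.2% of all genes did, and 2 had ratios above 0. Their summed level was 1344, 1594 and 1467 CPM in members and 1335, 1854 and 1668 in others, so the FaDu sum was not lower. Of 24 replication and nucleotide supply genes none passed 1.5-fold in all 3, and 18 had ratios below 0 in all 3. PCNA, the sliding clamp, had log2 ratios of -0.38, -0.25 and -0.33, and the fluoropyrimidine target TYMS had -0.23, -0.08 and -0.18.

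SPRR1B, a cornified envelope precursor, was the single gene outside the ranking set at least 2-fold lower in all 3 libraries, at 6.73, 7.14 and 5.40 CPM in members against 15.7, 22.9 and 17.2. It was found in few barcodes. A UMI was held by 68, 36 and 50 members and by 797 of 5381, 671 of 4191 and 717 of 6259 others. In members 1 barcode held 34.7% of its 101 UMIs with TPF. In others the top barcode of each library held 9.08%, 8.03% and 3.70% of its UMIs. SPRR1B missed 2-fold in the FaDu library under 2 alternatives. With MALAT1-poor barcodes left out its log2 ratios were -0.43, -1.82 and -1.50, and KRTAP3-2 was then the single lower gene. With ranking on thinned barcodes its ratios were -0.59, -1.41 and -1.61. The 9 measured keratinocyte differentiation genes had medians of -0.37, -0.35 and -0.27, and SPRR1B was the only one past 1.5-fold in all 3. The keratin KRT6A was at 8.77 and 5.47 CPM in the members of the resistant libraries against 25.2 and 17.1 in others, but at 31.0 against 34.0 in FaDu cells. Basal keratinocyte and hemidesmosome genes had medians of -0.07, -0.36 and -0.35. COL17A1, a hemidesmosome collagen, had log2 ratios of -0.26, -0.75 and -0.77, while the basal keratin KRT15 went the other way at 0.43, 1.08 and 0.99. HMOX1, the stress-induced haem oxygenase, had -0.90, -0.64 and -0.91.

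The levels were then followed over 20 bins of 5% of each library, ordered by the ranking value, of which the last pair are the members. The ranking genes stood at 758, 714 and 683 summed CPM in bin 19 and at 1309, 1357 and 1251 in bin 20, as the order fixes. Histone transcripts had their maxima in bins 11, 17 and 16, at 1326, 2217 and 2341 summed CPM. They stood at 807, 1664 and 1626 CPM in bin 19 and at 621, 651 and 766 CPM in bin 20, the lowest of the 20 bins in all 3 libraries. The members were thus not uniform: in the resistant libraries the histone sum in their lower part was more than 2 times that in their upper part. Replication genes differed in the same direction, from 2211 to 1702 CPM with TPF and from 2170 to 1636 CPM with TPF plus cinobufotalin, and from 1386 to 1313 CPM in FaDu. Mitotic kinesins stood at 227, 450 and 404 CPM in bin 10, 346, 584 and 539 in bin 19 and 515, 780 and 713 in bin 20. The lowest bin, which holds no ranking UMIs, also had fewer UMIs per barcode, with medians of 15221, 18212 and 9780, and its part in the low end of these curves was not tested.

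**Figure D4:**
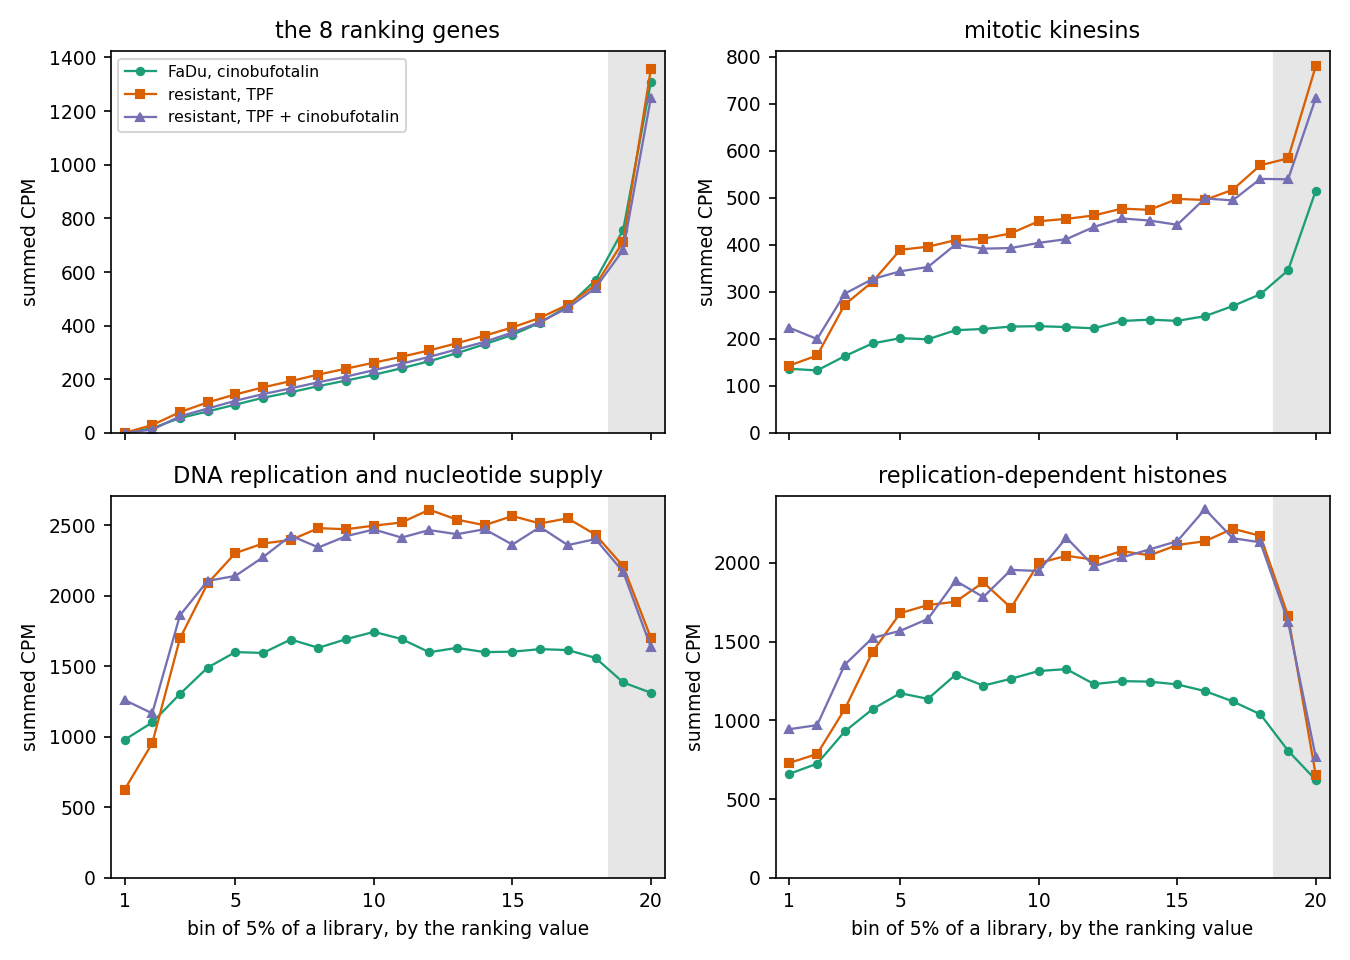
Summed CPM (y axis, from 0) of 4 gene sets in 20 bins of 5% of each library (x axis), ordered by the ranking value, with the members shaded. Histone sums end at 621, 651 and 766 CPM in bin 20, after maxima of 1326, 2217 and 2341 in earlier bins, while kinesin sums are highest in bin 20.

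Restricting the members to the top 5% gave 57 of 8039 genes at least 2-fold higher in all 3 libraries (0.709%), the 32 genes above included, and 15 lower (0.187%). Of the 15 lower genes 5 were replication-dependent histones. With the top 10% that list had 13 of the 10285 genes at a mean of at least 5 CPM. HIST1H1B then had log2 ratios of -1.60, -2.24 and -1.76. The 15 also held KRTAP3-2, at -1.65, -3.97 and -1.66 on 3.46, 1.53 and 6.39 CPM in members. The 25 further higher genes included INCENP of the passenger complex at 1.59, 1.13 and 1.27. Among them were also the cytokinesis genes KIF23 at 1.55, 1.24 and 1.02, CIT at 1.46, 1.19 and 1.16 and PRC1 at 1.24, 1.15 and 1.07. TPX2, which activates AURKA on spindle microtubules, had 1.40, 1.20 and 1.25. FAM72D, at 2.13, 2.10 and 1.77, has near-identical copies, so its value is uncertain. PADI3, an enzyme of hair and skin proteins, had 1.5, 1.98 and 1.81.

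Within the members, adding cinobufotalin to TPF in the resistant subline was compared gene by gene. At least 2-fold higher with cinobufotalin were 2 of 8075 genes (0.0248%), and at least 2-fold lower were 4 (0.0495%). In the other barcodes 1 gene passed in each direction (0.0124% each). For 8039 of the 8075 genes the counting interval within members lay inside 2-fold. LRRC75A stood at 24.8 CPM with TPF and 52.3 with TPF plus cinobufotalin in members, and at 25.9 and 65.2 in others, log2 ratios of 1.08 and 1.33. Its locus overlaps the more abundant LRRC75A-AS1 on the other strand, so its reads may not be its own. The clone-named AP002336.2 had 1.21 in members and 0.89 in others. ITGAM, an integrin chain, stood at 15.6 and 7.08 CPM in members and 18.2 and 8.44 in others, ratios of -1.14 and -1.11. MYL9, a myosin light chain of contractile fibres, stood at 27.5 and 12.1 CPM in members (-1.18) and 22.3 and 15.8 in others (-0.50). RRAD, a small GTPase of the RGK family, had -1.03 in members and -0.32 in others, and CALB2 (calretinin) had -1.12 and -0.32. These genes were chosen by their ratio in members, so a larger ratio there than in others follows in part from that choice. EGR4, CCL5 and CXCL10 below were chosen in the same way. In the FaDu library members stood at 35.3, 25.8 and 16.0 CPM of MYL9, RRAD and CALB2.

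**Figure D5:**
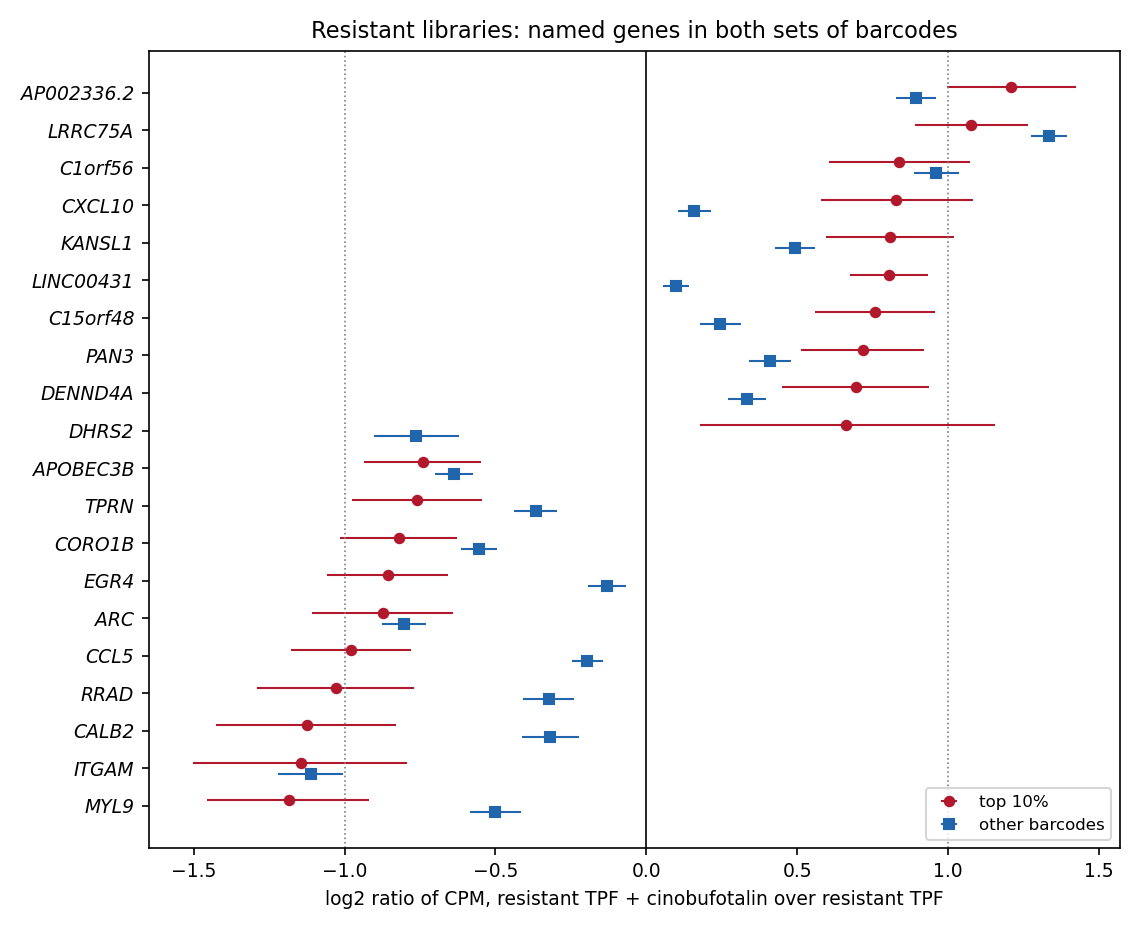
Log2 ratio of CPM (x axis), TPF plus cinobufotalin over TPF, in the top 10% and in the other barcodes of the resistant libraries for the named genes of this pair (y axis). Apart from DHRS2, the genes were chosen by their ratio in the top 10%. Bars are 95% counting intervals and dotted lines mark 2-fold; members and others lie on the same side of 0 for all genes drawn except DHRS2.

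The members of both resistant libraries were chosen on the summed ranking genes at nearly the same limit. This choice held that sum close between them. The ratios of mitotic genes below thus do not test an effect of cinobufotalin on that sum or on genes that vary with it. Within members, 180 genes of the 12 mitotic lists and the ranking set were compared. With cinobufotalin 3 were at least 1.5-fold lower (SGO2, CEP63 and DSN1) and none higher, or 1.67% against 2.27% of all 10285 genes. The lowest was SGO2, which protects centromeric cohesin, at -0.62 (-0.90 to -0.33) in members and -0.22 in others, and the highest was ZW10 at 0.34. CENPF had -0.33 in members and -0.34 in others. Within members the log2 ratio was -0.11 for CCNB1, -0.09 for PLK1, -0.23 for CDC20 and 0.18 for CENPA, and it was -0.30 for CCNB2 and 0.20 for UBE2C. Median ratios within members were -0.08 for the cyclin list, -0.14 for kinesins, -0.07 for spindle factors and 0.09 for histones, where all genes had -0.04. Tubulins, the proteins that paclitaxel binds, had a median of -0.35 in members and -0.35 in others. TUBA1C stood at 601 CPM with TPF and 407 with TPF plus cinobufotalin in members and at 324 and 220 in others, a ratio of -0.56 in both. TUBB4B had -0.47 and TUBA1B -0.45 in members, and TUBB -0.06. Immediate early genes had a median of -0.31 in members and -0.14 in others, with EGR4, a zinc finger factor, at 41.9 and 23.1 CPM in members (-0.86) and 35.4 and 32.3 in others (-0.13). CCL5 and CXCL10, chemokines of interferon responses, had ratios of -0.98 and 0.83 in members against -0.20 and 0.16, but 1 barcode held 25.4% of the CCL5 UMIs in members with TPF and 18.8% of those of CXCL10.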

How the data were processed

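The samples are 3 libraries made with a 10x Chromium 3′ v3.1 kit, 1 per group. The deposited matrices hold UMI counts per gene and barcode. The submitters' processing notes name Cell Ranger 7.0 and the build hg38. The annotation and the use of introns and of strand are not stated there. GENCODE release 29 holds each of the 58735 feature IDs. Passing barcodes held 165480083, 134708431 and 133274366 UMIs.

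UMIs were summed over members and over the other barcodes of a library, leaving 6 sums, and scaled to CPM. Ratios have Clopper-Pearson intervals. No doublet caller was run and doublets remain. A gene counted as called past 2-fold in the same direction in all 3 libraries at a mean of at least 10 CPM, and lists used 1.5-fold and 5 CPM. Members, lists and tests were chosen with earlier results of these data known. The ranking genes, mitochondrial, ribosomal protein and clone-named genes aside, named genes are the 15 highest and 12 lowest in members over others and the 8 each way in the resistant pair at a mean of at least 20 CPM, up to 4 per list at 5 CPM or more, and a set always given. Genes named because they passed 2-fold below that level, or in the top 5%, were chosen after their values were seen.

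On simulated counts for members over others the calls recovered 50 of 50 genes at 4-fold, 50 of 50 at 2.5-fold, 46 of 50 at 0.4-fold (the other 4 fell below the CPM filter), none of 50 at 1.5-fold and none of 7855 unchanged genes. The simulated sums held counting error only, with no ranking of barcodes and no spread between barcodes. They check the calling step and give no rate of false calls for ranked barcodes. Alternatives changed the share of barcodes, ranking, filters, scaling and libraries. Software was Python 3.11.15, numpy 2.4.6, scipy 1.17.1, pandas 2.3.3, matplotlib 3.10.9 and, for TMM factors, edgeR 4.0.16 in R 4.3.3.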

Additional observations from a re-analysis of the deposited data

Results flagged for a closer look

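DHRS2, a short-chain dehydrogenase, had opposite signs in members over others. It stood at 59.2 CPM in members and 32.1 in others in the FaDu library (log2 ratio 0.88, 0.79 to 0.98), at 4.24 and 9.35 CPM with TPF (-1.14, -1.54 to -0.76) and at 6.71 and 5.51 CPM with TPF plus cinobufotalin (0.28, -0.05 to 0.60). Between the resistant libraries its log2 ratio was 0.66 in members and -0.76 in others, and it was the 1 gene of 8075 (0.0124%) whose ratio differed at least 2-fold between them. The difference was not tested, since each group is 1 library. Few barcodes carried it: 71 members held its 1038 UMIs in the FaDu library, 18 members held 60 with TPF and 25 members held 92 with TPF plus cinobufotalin, with 17.6% to 21.7% of these UMIs in 1 barcode each.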

How the results depend on the processing

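Members and others were compared within each library, and no paired test between groups was possible because each group is 1 library. The number of genes at least 2-fold higher in members (32) was 57 with the top 5%, 11 with the top 20% and 15 with ranking on thinned barcodes, which kept 62.4% to 64.4% of members; it was 33 to 36 with 1 library left out and 22 to 44 under the alternatives not named here. The number lower (1) was 15 with the top 5%, 3 at a mean of 1 CPM, 0 at 20 CPM and 0 with thinned ranking, and 1 to 5 with 1 library left out; with MALAT1-poor barcodes left out it was 1, KRTAP3-2 in place of SPRR1B. In the resistant pair, genes higher with cinobufotalin in members (2) numbered 6 with the top 5%, 79 at 1 CPM and 4 at 5 CPM. Genes lower (4) numbered 2 with the 8 genes scaled to equal totals, 126 at 1 CPM, 2 at 20 CPM and 2 with the top 20%. The count of genes whose ratio differed between members and others (1) was 163 at 1 CPM, 4 at 5 CPM, 3 with the top 5% and 0 at 20 CPM, with equal totals, with thinned ranking and with the top 20%. The share at a common level was 20.1%, 23.4% and 19.99% at a limit 1 UMI lower and 6.67%, 7.34% and 5.75% at 1 UMI higher. It was 9.66% with TPF and 9.38% with TPF plus cinobufotalin without thinning, and with MALAT1-poor barcodes left out 10.4% in FaDu and 11.1% with TPF plus cinobufotalin. The causes were not tested. No called value changed sign, and 1365 of the values of named genes under alternatives stayed within their counting error while 419 did not. With 1 library per group, an effect of the line or the drugs and a difference between cultures cannot be told apart, and the other barcodes hold a median of only 4 to 7 ranking UMIs.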
